A study of Homo sapiens with 4 samples.

Results

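The core circadian clock of HepG2 cells was examined through 10 genes, ARNTL, CLOCK, PER1, PER2, PER3, CRY1, CRY2, NR1D1, NR1D2 and DBP, taken by their gene names from the 58302 genes in the deposited mRNA-seq tables. HepG2 is an established human hepatocellular carcinoma line, here wild type and not knocked down. The cells received either melatonin at 1 mM, the pineal hormone that signals night, or DMSO, the solvent used as the control, for 24 h or 48 h. Polyadenylated RNA of 1 culture was sequenced for each of these 4 conditions, so every comparison sets 1 library against another and no difference has a replicate check. The time of day at harvest and any step that synchronised the cells are not given in the sources used here, so the values are levels at 4 endpoints and not points of a rhythm.

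The mammalian clock is a transcriptional feedback loop. CLOCK and BMAL1, the product of ARNTL, bind E-box sequences as a heterodimer and activate the PER, CRY, NR1D and DBP genes. The PER and CRY proteins return to the nucleus and repress that heterodimer. In a second loop the REV-ERB receptors, products of NR1D1 and NR1D2, repress ARNTL and compete with the ROR activators for the same DNA element, and DBP carries the rhythm to output genes through D-boxes. In liver this clock times bile acid, glucose and xenobiotic metabolism.

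Short sequences of the kinds that clock factors bind were looked for in the promoters of these genes. All 10 genes matched RefSeq promoter windows of GRCh38.p14 (15 windows from 250 bases before to 50 bases after an annotated start, ARNTL being listed there as BMAL1). Both strands were searched for the E-box CACGTG, its variant the E-prime-box CACGTT, the D-box as TTATGTAA or TTACGTAA, and the ROR half-site AGGTCA. An E-box stood in 2 of the 15 windows, those of PER1 and NR1D2, and in 7.26% of all 35116 windows. An E-prime-box stood in 5 of the 15, 1 each of CLOCK, PER2, CRY1, CRY2 and NR1D1, against 5.34% of all windows. A D-box stood in 3 (PER2, PER3 and NR1D2), against 1.01%, and a ROR half-site in 4 (ARNTL, PER1 and both of CRY2), against 13.8%. These matches are descriptions of the sequence, and no binding was measured. The promoters of the 4 members with the widest range on the log2(FPKM + 1) scale over the libraries are shown 5′ to 3′ on the gene's own strand, with the matches in capitals. By the plain ratio of highest to lowest level ARNTL (1.99) and DBP (1.77) ranged over more than NR1D2 (1.69), and the DBP window held none of the motifs. PER2 is read from chr2:238288606-238288827 on the minus strand (E-prime-box, then a D-box across the start), CRY1 from chr12:107093550-107093749 on the minus strand (E-prime-box in reverse), NR1D1 from chr17:40100590-40100789 on the minus strand (E-prime-box in reverse) and NR1D2, at its second listed start, from chr3:23945907-23946120 on the plus strand (D-box in reverse, then 2 E-boxes), while the window of its first start held none.
PER2: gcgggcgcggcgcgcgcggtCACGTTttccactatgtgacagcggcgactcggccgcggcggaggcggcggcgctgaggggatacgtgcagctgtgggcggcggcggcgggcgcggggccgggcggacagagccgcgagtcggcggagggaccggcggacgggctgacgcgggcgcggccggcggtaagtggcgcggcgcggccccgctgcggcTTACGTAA
CRY1: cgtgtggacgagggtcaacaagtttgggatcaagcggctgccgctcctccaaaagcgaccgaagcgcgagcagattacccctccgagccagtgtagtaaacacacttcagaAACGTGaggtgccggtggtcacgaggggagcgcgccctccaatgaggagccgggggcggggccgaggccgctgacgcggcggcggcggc
NR1D1: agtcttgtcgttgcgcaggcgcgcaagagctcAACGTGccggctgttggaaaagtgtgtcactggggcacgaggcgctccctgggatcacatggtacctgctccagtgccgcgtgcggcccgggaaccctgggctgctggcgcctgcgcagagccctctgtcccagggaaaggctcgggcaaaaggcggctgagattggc
NR1D2: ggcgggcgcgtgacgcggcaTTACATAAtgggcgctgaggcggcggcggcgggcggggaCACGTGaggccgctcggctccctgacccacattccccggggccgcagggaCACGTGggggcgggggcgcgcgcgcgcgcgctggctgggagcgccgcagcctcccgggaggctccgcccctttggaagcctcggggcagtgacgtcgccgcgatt

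Expression was deposited as FPKM, fragments scaled to gene length and to a library size. The values kept their whole reads, from 21616676 to 23086025 on genes per library, so that each level below carries an exact 95% Poisson interval and each ratio an exact binomial interval. These intervals cover counting error only and say nothing of the spread between cultures. The share of reads on mitochondrial genes was 19.96% in the DMSO 24 h library, 16.6% with melatonin at 24 h, 9.77% with DMSO at 48 h and 11.9% with melatonin at 48 h. Replacing the authors' library size by the sum of reads without these genes multiplied the 4 comparisons' ratios by 0.992 to 1.05. The plain sum of reads, which keeps these genes, multiplied them by 1.02 to 1.12. The sums with and without them lay furthest apart for time with DMSO, at 1.12 and 0.992. Members whose count or direction the sum without mitochondrial genes altered are named beside the results. The hepatocyte identity of the line was clear, with ALB between 2717 and 3343 FPKM and HNF4A, the lowest of 8 hepatocyte markers in DMSO 48 h, at 34.9 FPKM or more. AFP and TTR differed most among these markers between the 48 h libraries, AFP at 1902 FPKM with DMSO and 782 with melatonin, TTR at 50.6 and 256. Among markers of other cell types COL3A1 and KRT5 had 0 reads in every library, PTPRC at most 1 and COL1A1 at most 14, while the endothelial marker PECAM1 had 64 to 162 reads (0.407 to 0.9403 FPKM) and was higher at 48 h.

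All 10 clock genes were detected in every library, at low to middling levels. They held 44 to 1009 reads each, and 3194, 3543, 4647 and 3671 reads together, given for DMSO then melatonin at 24 h and DMSO then melatonin at 48 h. Lists of 4 values keep this order of libraries throughout. The highest member reached 6.90, 5.47, 7.91 and 4.94 FPKM, beside a median of 6.82, 7.15, 6.69 and 6.75 over the protein-coding genes with an FPKM of at least 1. By the listed gene lengths ARNTL, PER3 and DBP stayed below 1 FPKM in all 4 libraries and the other 7 members above 1. With DMSO at 24 h PER2 led, followed by NR1D2 and NR1D1, whose difference was within counting error, then CRY2, then CLOCK, PER1 and CRY1, which were not separated from one another as neighbours. With DMSO at 48 h the order was NR1D2, NR1D1, then CRY1 and PER2 within counting error of each other, then CRY2, PER1 and CLOCK. With melatonin at 24 h PER2 and NR1D2 stood at the top within counting error, and at 48 h NR1D2 and NR1D1 did. ARNTL, PER3 and DBP took the last 3 places in every library.

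**Figure D1:**
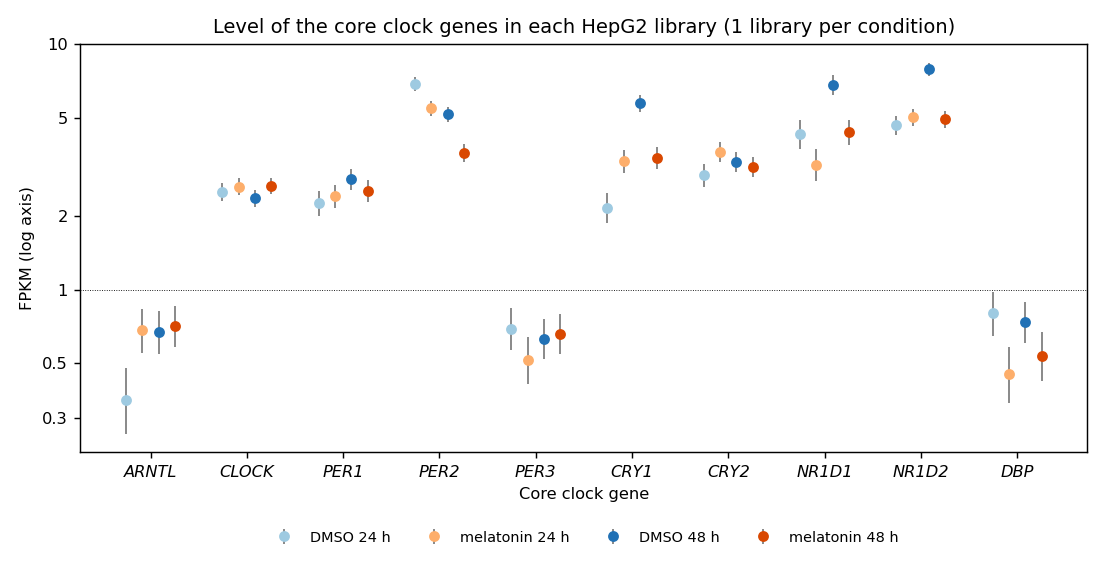
FPKM of the 10 core clock genes (log axis) in the 4 HepG2 libraries, with bars for the exact 95% Poisson interval of the reads and a dotted line at 1 FPKM. CRY1, NR1D1 and NR1D2 are highest in the DMSO 48 h library, PER2 is highest in DMSO 24 h, and ARNTL, PER3 and DBP stay below the line.

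The order between genes depends on the gene lengths in the deposited tables, which lie close to the joined exons of all transcripts. For DBP that length was 6544 bases, 3.02 times the canonical transcript in GENCODE 44 (2170 bases), for ARNTL 2.41 times and for CRY1 1.69 times. Divided by the canonical length, DBP came to 2.41, 1.36, 2.23 and 1.62 FPKM and CRY1 to 3.65, 5.66, 9.74 and 5.82, which put CRY1 first among the members in both 48 h libraries. PER3 instead of DBP was then the lowest member with melatonin. ARNTL came to 0.860, 1.65, 1.62 and 1.71 FPKM by its canonical length, and PER3 to 0.881, 0.658, 0.802 and 0.842. Plain ratios of a gene between libraries are free of this choice. The filter at an FPKM of 1 and the log2(FPKM + 1) differences are not, and below they use the listed lengths.

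Of the activators, CLOCK (ENSG00000134852, chr4:55427903-55547138 of hg38, minus strand) encodes the histone acetyltransferase subunit of the heterodimer. CLOCK stood at 2.51, 2.62, 2.35 and 2.65 FPKM, from 541, 626, 606 and 693 reads. This was the flattest member by FPKM, its highest level being 1.13 times its lowest, in DMSO 48 h. That range hung on the scaling. With TPM the ratio of 48 h to 24 h was 1.33 with DMSO and 1.22 with melatonin. The ratio of melatonin to DMSO was 1.05 at 24 h (95% interval 0.932 to 1.18) and 1.13 at 48 h (1.01 to 1.26). CLOCK shares 76 exonic bases with TMEM165 on the other strand, which held 990 to 1899 reads, and whether reads were counted by strand is not stated in the sources used here.

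ARNTL (ENSG00000133794, chr11:13276652-13387266, plus strand) encodes BMAL1, the partner of CLOCK. ARNTL stood at 0.356, 0.682, 0.671 and 0.710 FPKM, from 44, 93, 99 and 106 reads. The DMSO 24 h library was low and the other 3 lay together, their Poisson intervals overlapping each other and not that of DMSO 24 h (0.259 to 0.478). The ratio of melatonin to DMSO was therefore 1.91 at 24 h (1.32 to 2.80) and 1.06 at 48 h (0.796 to 1.41). On the log2(FPKM + 1) scale, which shrinks changes of weakly expressed genes, these were differences of 0.31 and 0.03. ARNTL was also higher at 48 h than at 24 h with DMSO, with a ratio of 1.88 (1.31 to 2.75) that rests on the same 44 reads.

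Of the repressors, PER2 (ENSG00000132326, chr2:238244038-238290102, minus strand) encodes the scaffold of the PER and CRY repressor complex. PER2 stood at 6.90 FPKM in DMSO 24 h, 5.47 in melatonin 24 h, 5.18 in DMSO 48 h and 3.61 in melatonin 48 h, from 871, 763, 781 and 552 reads. It was the only member below its DMSO control at both times and lower at 48 h than at 24 h under both treatments with all 4 intervals below 1. The ratio of melatonin to DMSO was 0.793 at 24 h (0.718 to 0.875) and 0.698 at 48 h (0.625 to 0.779), and that of 48 h to 24 h was 0.751 with DMSO (0.681 to 0.828) and 0.661 with melatonin (0.591 to 0.738). The DMSO ratio over time reversed to 1.07 when the values were rescaled to TPM, while both melatonin ratios stayed below 1 under every scaling, lying between 0.795 and 0.895 at 24 h and between 0.672 and 0.732 at 48 h under the alternatives. In bulk RNA a lower level per cell and fewer cells expressing a gene cannot be told apart.

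PER1 (ENSG00000179094, chr17:8140472-8156506, minus strand), the family member induced most directly by hormones and cAMP, stood at 2.25, 2.39, 2.81 and 2.53 FPKM. Its ratios of melatonin to DMSO were 1.06 (0.908 to 1.25) at 24 h and 0.898 (0.782 to 1.03) at 48 h, both intervals covering 1. PER3 (ENSG00000049246, chr1:7784320-7845177, plus strand), which tunes the loop but is not essential to it, stood at 0.693, 0.517, 0.631 and 0.662 FPKM. Its ratios were 0.747 (0.554 to 1.01) and 1.05 (0.804 to 1.37), and with the 85 to 119 reads it held a difference within these bounds was not detectable. PER2 was thus the PER gene whose melatonin intervals lay outside 1.

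CRY1 (ENSG00000008405, chr12:106991364-107093829, minus strand), the stronger repressor of the CRY pair, varied most of all members. CRY1 stood at 2.15 FPKM in DMSO 24 h (1.86 to 2.47, 200 reads), 3.34 in melatonin 24 h (2.996 to 3.71, 343 reads), 5.75 in DMSO 48 h (5.31 to 6.21, 638 reads) and 3.43 in melatonin 48 h (3.10 to 3.79, 386 reads). Both melatonin libraries lay close together between a low DMSO 24 h and a high DMSO 48 h library. CRY1 was accordingly higher with melatonin at 24 h, with a ratio of 1.55 (1.30 to 1.86), and lower at 48 h, with a ratio of 0.598 (0.525 to 0.679). Over time the ratio of 48 h to 24 h was 2.67 with DMSO (2.27 to 3.15) and 1.03 with melatonin (0.887 to 1.19). CRY2 (ENSG00000121671, chr11:45847118-45883248, plus strand), which encodes the other cryptochrome, stood at 2.92, 3.65, 3.30 and 3.17 FPKM. Its ratio of melatonin to DMSO was 1.25 at 24 h (1.08 to 1.45) and 0.959 at 48 h (0.839 to 1.10). The latter became 1.01 with the sum of reads without mitochondrial genes as library size, and 0.982 with the plain sum of reads.

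Of the REV-ERB genes of the second loop, NR1D2 (ENSG00000174738, chr3:23945260-23980618, plus strand) encodes REV-ERB beta, a heme-binding nuclear receptor that represses ARNTL. NR1D2 stood at 4.67, 5.02, 7.91 and 4.94 FPKM, from 499, 593, 1009 and 639 reads. The DMSO 48 h library was high and the other 3 lay within 4.67 to 5.02. The ratio of melatonin to DMSO was 1.08 at 24 h (0.953 to 1.21) and 0.625 at 48 h (0.566 to 0.691), and with DMSO the ratio of 48 h to 24 h was 1.69 (1.52 to 1.89). NR1D1 (ENSG00000126368, chr17:40092787-40100725, minus strand) encodes REV-ERB alpha, with the same function. NR1D1 stood at 4.30, 3.22, 6.83 and 4.37 FPKM, from 219, 181, 415 and 269 reads. It was lower with melatonin at both times, with ratios of 0.748 (0.611 to 0.915) at 24 h and 0.640 (0.547 to 0.748) at 48 h, and higher at 48 h under both treatments, with ratios of 1.59 (1.34 to 1.88) with DMSO and 1.36 (1.12 to 1.65) with melatonin. NR1D1 shares 473 exonic bases with THRA, a thyroid hormone receptor gene on the other strand. THRA held 812, 836, 1000 and 885 reads, and without a stated strand setting the reads of the shared bases cannot be told apart.

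DBP (ENSG00000105516, chr19:48630030-48637438, minus strand) encodes the PAR bZIP activator that acts on D-boxes and is the direct output of the loop. DBP stood at 0.799, 0.452, 0.739 and 0.537 FPKM, from 96, 60, 106 and 78 reads. Both melatonin libraries were below both DMSO libraries, but at 48 h the Poisson intervals overlapped, 0.605 to 0.893 with DMSO and 0.424 to 0.670 with melatonin. The ratio of melatonin to DMSO was 0.566 at 24 h (0.403 to 0.789) and 0.727 at 48 h (0.535 to 0.983). DBP shares 661 exonic bases with SPHK2 on the other strand, whose 357, 337, 267 and 372 reads cannot be told apart from those of DBP over these bases.

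Whether melatonin moved the clock genes at 24 h was read first by the fold threshold. None of the 7 members with an FPKM of at least 1 passed a 2-fold difference on the log2(FPKM + 1) scale, beside 4.35% of all genes tested (591 of 13582). By the plain ratio, with at least 50 reads in either library, 2 of 10 members were higher by 1.5-fold or more (ARNTL and CRY1) and 1 was lower (DBP), beside 5.36% and 6.32% of 12159 genes. The median ratio of the 10 members was 1.06, beside 1.03 over all genes with enough reads, whose 10th and 90th percentiles were 0.743 and 1.36. The intervals of ARNTL, CRY1 and CRY2 lay above 1, those of PER2, NR1D1 and DBP below 1, and those of the other 4 covered 1. The share of all genes whose interval leaves 1 was not counted, so this count has no baseline over all genes. Of the 15 genes of PER and CRY turnover described below, 6 had intervals above 1, 4 below 1 and 5 covering 1. At 24 h those genes held up to 4443 reads (CSNK2A1) and the members up to 871 (PER2). More reads give narrower intervals, so the turnover genes are no baseline for the members either.

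At 48 h again none of these 7 members passed 2-fold with melatonin, beside 5.72% of all genes (789 of 13805). By the plain ratio 3 of 10 members were lower by 1.5-fold or more, CRY1, NR1D2 and NR1D1, and none was higher, beside 11.3% lower and 12.7% higher over 12690 genes. NR1D1 left that count, at a ratio of 0.672, with the sum of reads without mitochondrial genes as library size. The median ratio of the members was 0.813, beside 0.992 over all genes (0.645 to 1.602 between the 10th and 90th percentiles). The intervals of PER2, CRY1, NR1D1, NR1D2 and DBP lay below 1, that of CLOCK above 1, and those of the other 4 covered 1. Here too the share over all genes was not counted. Of the 15 turnover genes, 2 had intervals above 1, 7 below 1 and 6 covering 1. Those genes again reached more reads, up to 7283 (CSNK1D) against 1009 in the members (NR1D2), and are no baseline.

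**Figure D2:**
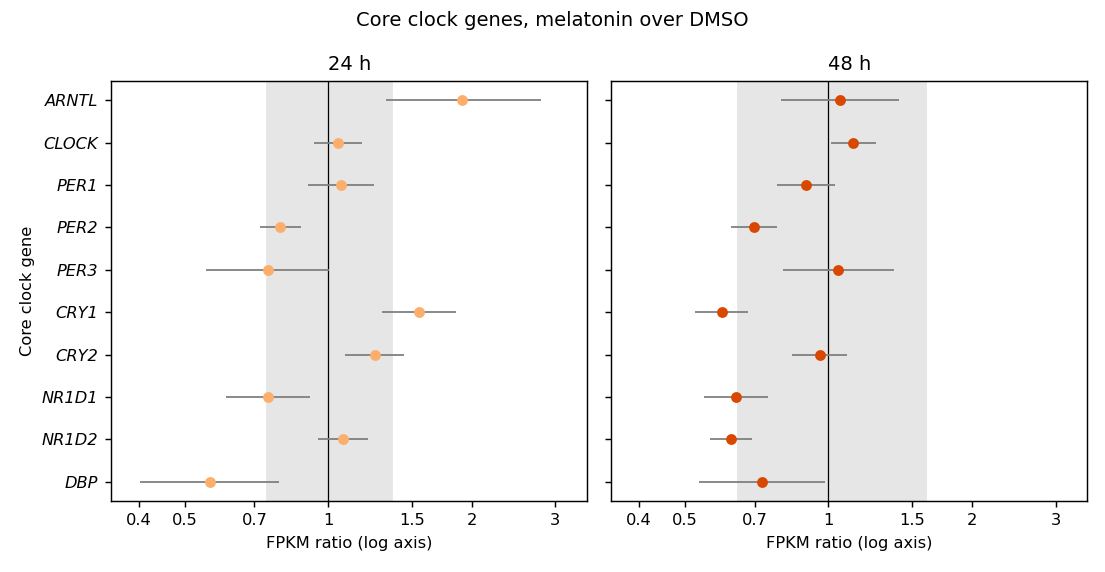
FPKM ratio of melatonin to DMSO for each core clock gene at 24 h and at 48 h (log axis), with bars for the exact 95% counting interval and a grey band from the 10th to the 90th percentile of all genes with enough reads. PER2, NR1D1 and DBP lie below 1 at both times, and CRY1 lies above 1 at 24 h (1.55) and below 1 at 48 h (0.598).

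The melatonin ratios at 24 h and 48 h were then set against each other for each gene. CRY1 differed most, its log2 ratio at 48 h being lower than that at 24 h, with a difference of -1.38 (counting interval -1.69 to -1.07). The difference was -0.86 for ARNTL (-1.51 to -0.20), -0.78 for NR1D2 (-1.01 to -0.56) and -0.38 for CRY2 (-0.66 to -0.11). For the other 6 members the interval covered 0, and the share of all genes whose interval leaves 0 was not counted. With 1 library per condition the design leaves no spread against which these differences between times could be tested.

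Time in culture was compared within each treatment. The comparison with DMSO shares the DMSO 48 h library with the melatonin comparison at 48 h and the DMSO 24 h library with that at 24 h, so the same reads enter both. With DMSO 1 of the 7 members passed 2-fold, CRY1, at 1.10 on the log2(FPKM + 1) scale, beside 7.74% of all genes (1072 of 13854). By the plain ratio 4 of 10 members were higher at 48 h by 1.5-fold or more, CRY1, ARNTL, NR1D2 and NR1D1, and none was lower, beside 14.5% higher and 14.7% lower over 12519 genes. The median ratio of the members was 1.19, beside 1.01 over all genes. PER1 was higher too, with a ratio of 1.25 (1.08 to 1.46), and PER2 was the member whose interval lay below 1. The direction of the weaker differences hung on the scaling, since TPM multiplied every ratio of this comparison by 1.42 and put all 10 members above 1, where 6 were by FPKM and 9 by the plain sum of reads. With TPM 6 of 10 members were higher by 1.5-fold or more, PER1 (1.78) and CRY2 (1.61) joining the 4 above. TPM also moved the median of all genes, to 0.46 on the log2 scale in this comparison (0.17 for melatonin at 24 h and 0.23 for time with melatonin), above which CRY1, NR1D2, NR1D1, ARNTL, PER1 and CRY2 lay.

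With melatonin, none of the 7 members passed 2-fold between 24 h and 48 h, beside 4.15% of all genes (560 of 13489). By the plain ratio 1 of 10, PER2, was lower by 1.5-fold or more and none was higher, beside 6.77% lower and 7.82% higher over 12380 genes. PER2 left that count under the other 3 scalings, where its ratio was 0.686 to 0.800, and with TPM the count turned to 2 higher (NR1D1 at 1.64 and PER3 at 1.55) and 0 lower. The median ratio was 1.03, beside 0.969 over all genes. For 7 members the interval covered 1, CRY1 (1.03), NR1D2 (0.984, and 1.02 to 1.19 under the other scalings) and ARNTL (1.04) among them. Of the 15 turnover genes, which reached more reads than the members, the interval covered 1 for 6. The share over all genes was not counted.

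**Figure D3:**
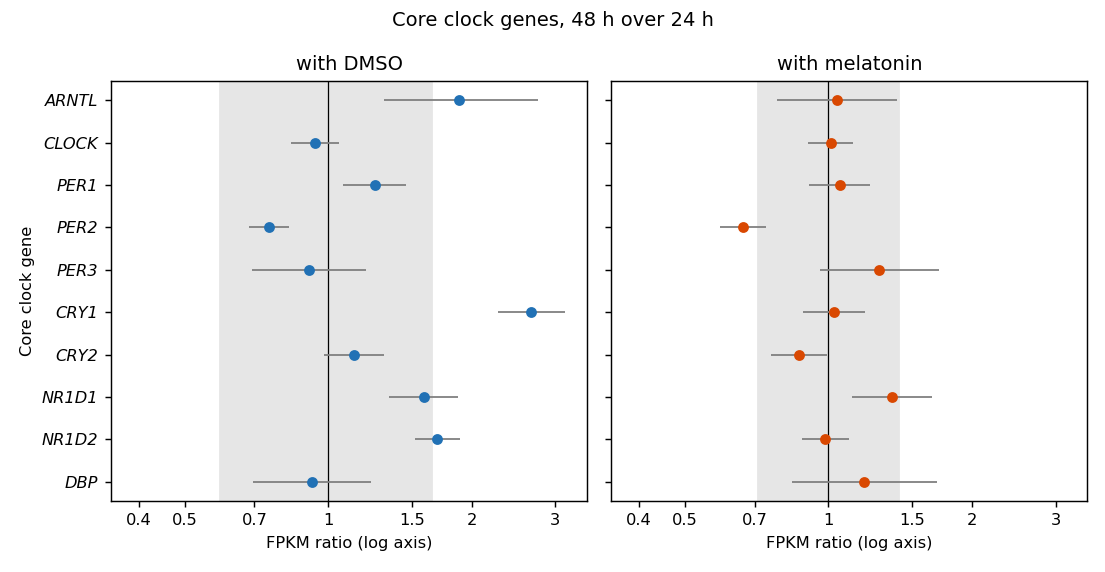
FPKM ratio of 48 h to 24 h for each core clock gene with DMSO and with melatonin (log axis), with bars for the exact 95% counting interval and the same grey band for all genes. With DMSO, CRY1 reaches 2.67 and ARNTL, NR1D1 and NR1D2 lie between 1.59 and 1.88, while with melatonin NR1D1 is the member whose interval lies above 1 and PER2 lies lowest in both.

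Ratios between related genes within a library do not depend on how libraries were scaled. PER2 per length exceeded PER1 by 3.07 (2.68 to 3.52) in DMSO 24 h, 2.28 (2.01 to 2.60) in melatonin 24 h, 1.84 (1.63 to 2.08) in DMSO 48 h and 1.43 (1.25 to 1.63) in melatonin 48 h. The balance of these paralogs was thus lower with melatonin than with DMSO at each time, and lower at 48 h than at 24 h. CRY1 over CRY2 was 0.738 (0.616 to 0.882), 0.915 (0.793 to 1.055), 1.74 (1.54 to 1.97) and 1.08 (0.943 to 1.25), so that CRY1 was the lesser of the pair in DMSO 24 h and the greater in DMSO 48 h. NR1D2 over NR1D1 lay between 1.09 and 1.16 except with melatonin at 24 h, where it was 1.56 (1.32 to 1.85). Against CLOCK, the flattest member by FPKM, CRY1 stood at 0.859, 1.27, 2.45 and 1.29, and PER2 at 2.75, 2.08, 2.20 and 1.36. The lengths in the tables enter each of these ratios equally in all 4 libraries.

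**Figure D4:**
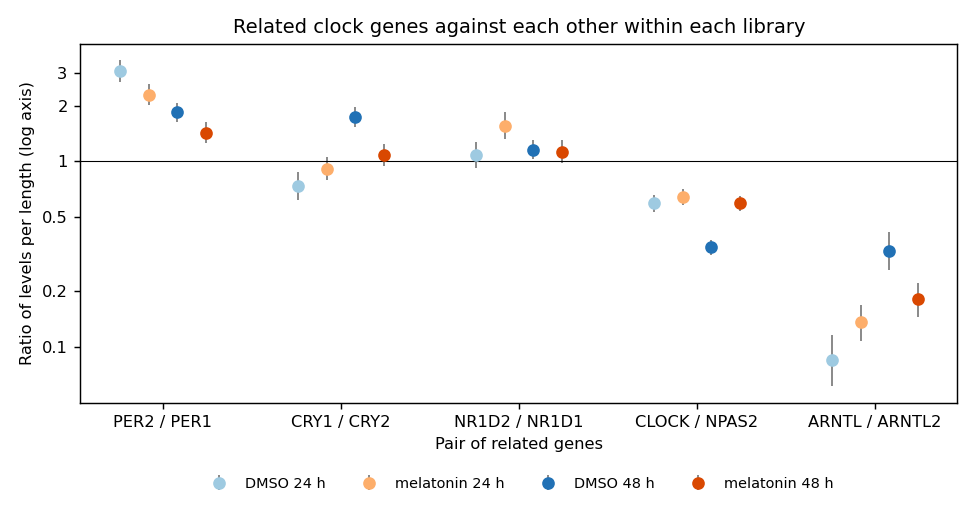
Ratio of the FPKM of related clock genes within each of the 4 libraries (log axis), with bars for the exact 95% counting interval. PER2 over PER1 goes from 3.07 in DMSO 24 h to 1.43 in melatonin 48 h, and CRY1 over CRY2 is below 1 in DMSO 24 h (0.738) and highest in DMSO 48 h (1.74).

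The genes that stand beside the members in the clock loops were described from a list of 11, of which 8 had at least 50 reads in either library of each comparison. RORB had 0 reads in every library, which at 3 reads allows up to 0.0170 FPKM, and BHLHE41 and CIART had at most 4. With melatonin 0 were higher and 1 lower by 1.5-fold at 24 h, and 2 higher and 1 lower at 48 h, with median ratios of 1.12 and 1.11. The shares of all genes past this ratio were, as for the members, 5.36% higher and 6.32% lower at 24 h and 12.7% and 11.3% at 48 h. Between 48 h and 24 h 2 were higher and 3 lower with DMSO (14.5% and 14.7% of all genes), and 1 higher and 1 lower with melatonin (7.82% and 6.77%). NPAS2, which can replace CLOCK in the heterodimer, stood at 4.204, 4.08, 6.82 and 4.46 FPKM, highest in DMSO 48 h, with a melatonin ratio of 0.653 at 48 h. ARNTL2, the paralog of ARNTL, stood at 4.19, 5.03, 2.03 and 3.95 and was lowest there, with a ratio of 1.94. ARNTL per length was 0.085, 0.135, 0.330 and 0.180 of ARNTL2, and CLOCK was 0.596, 0.644, 0.344 and 0.595 of NPAS2, so the paralogs exceeded the members in all 4 libraries by the listed lengths.

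RORA encodes an activator that binds the element recognised by the REV-ERBs. RORA stood at 1.48, 1.05, 2.29 and 1.64 FPKM, lower with melatonin by the ratios 0.713 at 24 h and 0.714 at 48 h. BHLHE40 (DEC1), a repressor that competes for E-boxes, stood at 20.8, 11.7, 3.71 and 3.69 FPKM. It had the widest range of the list, the ratio of melatonin to DMSO being 0.560 at 24 h and 0.994 at 48 h, and that of 48 h to 24 h 0.178 with DMSO and 0.316 with melatonin. Among the D-box factors HLF stood at 52.1, 69.9, 58.9 and 71.0 FPKM and TEF at 3.004, 3.60, 2.19 and 2.92, both higher with melatonin at each time, while NFIL3 (E4BP4), the repressor of D-boxes, stood at 34.1, 35.6, 39.5 and 39.8. DBP per length was 0.006 to 0.015 of HLF, so that DBP was a minor member of its family in these cells.

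Enzymes and partners that set the stability or activity of PER and CRY proteins were measured for all 15 genes of a list. With melatonin 0 were higher and 1 lower by 1.5-fold at 24 h (5.36% and 6.32% of all genes), and 1 was higher and 3 lower at 48 h (12.7% and 11.3%), with median ratios of 1.07 and 0.945. Between 48 h and 24 h 2 were higher and 1 lower with DMSO (14.5% and 14.7%), and 0 in either direction with melatonin (7.82% and 6.77%). CSNK1D and CSNK1E, the casein kinases that phosphorylate PER proteins for degradation, stood at 15.5, 13.4, 30.1 and 17.8 FPKM and at 7.81, 5.93, 13.4 and 8.83 FPKM. Both were highest in DMSO 48 h, where the melatonin ratios were 0.590 and 0.658. USP2, a deubiquitinase of clock proteins, stood at 3.06, 1.63, 3.73 and 1.68 FPKM, with ratios of 0.532 at 24 h and 0.450 at 48 h. TIMELESS, which binds clock proteins and the replication fork, stood at 16.1, 19.0, 5.79 and 14.8 FPKM and was the gene of the list past 2-fold with melatonin, at 1.22 on the log2(FPKM + 1) scale at 48 h. CSNK2A1, the most abundant of the list, stood at 35.5, 36.2, 38.2 and 31.7 FPKM.

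Clock-linked output genes of liver were listed as 14 genes, of which 10 had at least 50 reads and GYS2 had 0. With melatonin 1 was higher and 1 lower by 1.5-fold at 24 h (5.36% and 6.32% of all genes), and 4 were higher and 1 lower at 48 h (12.7% and 11.3%), with median ratios of 1.05 and 1.24. Between 48 h and 24 h 3 were higher and 2 lower with DMSO (14.5% and 14.7%), and 3 higher and 1 lower with melatonin (7.82% and 6.77%). PPARGC1A, a coactivator of gluconeogenesis and of the RORs, stood at 2.41, 5.54, 6.53 and 9.44 FPKM, with melatonin ratios of 2.30 and 1.45. The gluconeogenic G6PC stood at 1.55, 1.62, 3.58 and 7.11 (1.98 at 48 h) and PCK1 at 1.06, 1.53, 0.381 and 0.931 (2.44 at 48 h). CDKN1A, the p21 cell cycle inhibitor, stood at 25.3, 16.2, 60.3 and 26.6 FPKM, highest in DMSO 48 h, with ratios of 0.640 and 0.441. FKBP5 stood at 8.91, 11.4, 4.35 and 8.09 FPKM and was lowest in DMSO 48 h, with a ratio of 1.86 there. KLF10, a transcription factor under clock control, stood at 3.82, 4.08, 3.59 and 5.45 FPKM (1.52 at 48 h). The most abundant of the list was POR, the electron donor of microsomal cytochromes P450, at 75.4, 73.6, 102.5 and 70.2 FPKM, and ALAS1, the first enzyme of heme synthesis, stood at 10.4, 10.7, 11.8 and 9.68 FPKM.

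The genes of melatonin sensing, synthesis and clearance were listed as 11, of which 3 had at least 50 reads. The receptor gene MTNR1A had 0 reads in 3 libraries and 1 read in melatonin 48 h, where 3 reads correspond to 0.105 to 0.127 FPKM over the 4 libraries, MTNR1B had 1 read in DMSO 24 h and 0 elsewhere, and the related GPR50 had 0 in all. The synthesis genes AANAT and ASMT had at most 4 reads and 1 read. No receptor gene held more than 1 read in any library, which is below that limit at this depth. This does not show that the receptors are absent. The authors measured MT1, the product of MTNR1A, by RT-qPCR in HepG2 cells. They reported that its knockdown weakened the effect of melatonin on splicing. NQO2, the melatonin-binding quinone reductase, stood at 3.22, 3.45, 3.49 and 3.32 FPKM. CYP1A1, which hydroxylates melatonin, stood at 1.24, 5.55, 4.18 and 12.6 FPKM, with ratios of 4.49 and 3.01, whereas CYP1A2, the main hepatic enzyme for this step, had at most 2 reads. SULT1A1, which conjugates the product, stood at 10.2, 12.5, 6.35 and 9.71 FPKM, with ratios of 1.23 and 1.53.

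**Figure D5:**
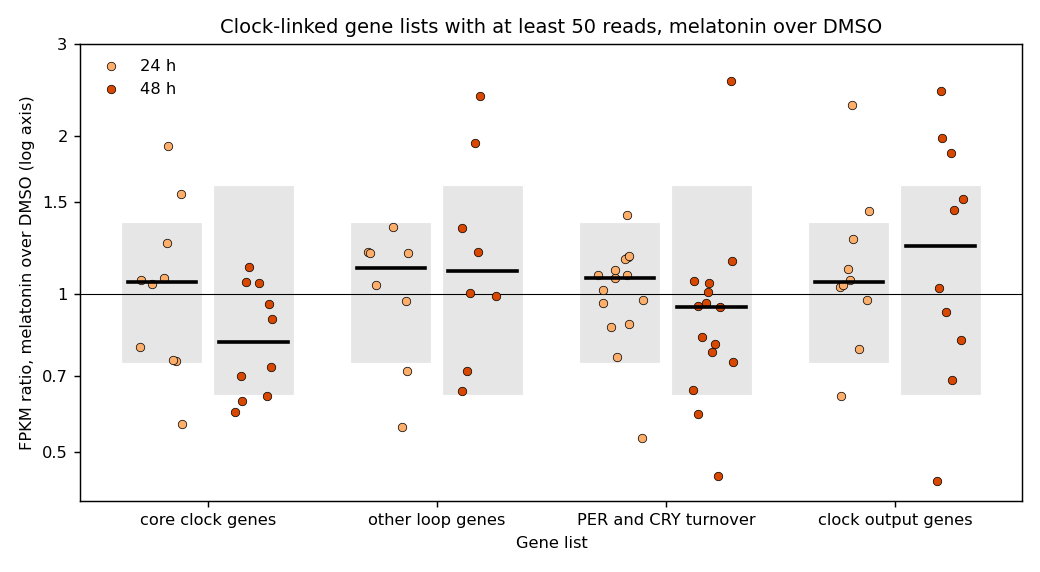
FPKM ratio of melatonin to DMSO at 24 h and 48 h (log axis) for each gene with enough reads in the core clock list and the surrounding lists, points being genes, bars the list medians and grey boxes the 10th to 90th percentiles of all genes with at least 50 reads. The core clock genes lie between 0.566 and 1.91 with melatonin at 24 h and have a median of 0.813 at 48 h, most of them within the grey boxes.

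CRY1 was the member whose log2(FPKM + 1) values ranged over at least 1 across the libraries. Among 11350 genes that held 50 or more reads in all 4 libraries, those nearest to its profile were CHMP4C (2.31, 3.46, 5.94 and 3.45 FPKM, distance 0.045 on the centred log2 scale over 4 libraries), LAMP2 (40.1, 50.2, 82.1 and 54.8 FPKM, distance 0.106) and AL390719.1 (3.01, 3.88, 6.93 and 4.29 FPKM, distance 0.127). All 3 were chosen for nearness to CRY1, so being lowest in DMSO 24 h and highest in DMSO 48 h follows from that choice. Each likeness rests on 4 points.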

How the data were processed

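Polyadenylated RNA was sequenced in read pairs. The authors' methods name MapSplice 2.0.1.6 for mapping to hg38 and Cufflinks for expression, while the submitters' processing notes name Bowtie2 2.0.6, TopHat2 2.0.9, Cufflinks 2.1.1 and Cuffdiff 2.1.1. The values used are the deposited FPKM per gene with the deposited gene length. The product of FPKM and length fell on whole steps in 100% of values (within 0.01 reads), which gave the reads, and 3 reads in a gene of 1 kb equal 0.135 to 0.163 FPKM. How the authors' library size was set is not stated (0.849 to 0.973 of the reads on genes).

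Differences were log2((FPKM + 1) ratios), counted past 2-fold among genes reaching an FPKM of 1 in either library, and plain ratios past 1.5-fold with at least 50 reads in either library. With 1 library per condition no p-value was computed. Intervals are exact Poisson (levels) and Clopper-Pearson (ratios), 95%, and that of the difference between times is a normal approximation on reads. Python 3.11.15, numpy 2.4.6, pandas 2.3.3, scipy 1.17.1 and matplotlib 3.10.9 were used, and the scripts were tested on simulated data. The members and lists were chosen with earlier results of these data known. Named were all 10 members and, from each surrounding list, genes past a threshold or among the 3 highest, apart from items not reported here, while TEF, MTNR1A, MTNR1B, GPR50, AANAT, ASMT and CYP1A2 were added after their values were seen. Alternatives were a 1.5-fold threshold, a pseudocount of 0.1, TPM, no filter, a minimum FPKM of 5, centring on the median, the plain sum of reads and, chosen after seeing the data, reads without mitochondrial genes and canonical transcript lengths.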

Additional observations from a re-analysis of the deposited data

Results flagged for a closer look

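CRY1 differed from its DMSO control in opposite directions at the 2 times, with a ratio of melatonin to DMSO of 1.55 at 24 h and 0.598 at 48 h. The difference between the times was not tested, since each condition had 1 library. The directions were the same under all scalings, with ratios between 1.56 and 1.75 at 24 h and between 0.575 and 0.627 at 48 h under the alternatives. The level of CRY1 in the melatonin libraries was 3.34 and 3.43 FPKM and in the DMSO libraries 2.15 and 5.75.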

How the results depend on the processing

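No paired analysis was possible because each condition had 1 library, and no library could be left out. The median log2 difference of the members that passed the filter was 0.06 and -0.42 for melatonin at 24 h and 48 h, and 0.23 and 0.01 for time with DMSO and with melatonin. With a minimum FPKM of 5, which left 2 to 4 members, it was -0.10, -0.56, 0.61 and -0.25. With TPM, where all 10 members passed, it was -0.26 for melatonin at 48 h, 0.66 for time with DMSO and 0.27 for time with melatonin. Without a filter it was -0.15 for melatonin at 48 h. The members past 2-fold for time with DMSO were 1, and 3 with TPM (CRY1, NR1D1 and NR1D2). At a 1.5-fold threshold on the same log2 scale they were 2 for time with DMSO (CRY1 and NR1D2) and 1 for melatonin at 48 h (CRY1). TPM reversed PER2 over time with DMSO (0.0855 on the log2 scale) and CRY2 over time with melatonin (0.0640). It also turned the sign of differences whose counting interval covered 0, those of CLOCK (-0.07 to 0.35), PER3 (-0.05 to 0.23) and DBP (-0.05 to 0.26) over time with DMSO and NR1D2 (-0.02 to 0.23) over time with melatonin, since it multiplies all ratios of those comparisons by 1.42 and 1.21. Of the other values of single members, 166 moved by less than their counting interval and 32 by more, 25 of these with TPM and 6 with a pseudocount of 0.1. Depth limited ARNTL, PER3 and DBP most, with 44 to 119 reads each.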
